A study of Mus musculus with 6 samples.

Results

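The aminoacyl-tRNA synthetases were examined in mouse CD8+ T cells as 39 genes of the 54446 in the deposited transcript files. The genes were found by name: the enzyme symbols from *Aars* to *Yars*, the same symbols followed by 1 or 2, *Tarsl2*, and the scaffold genes *Aimp1* and *Aimp2*. By textbook knowledge 19 of them encode cytosolic enzymes, 16 encode mitochondrial enzymes, 2 (*Gars* and *Kars*) supply both compartments from 1 gene, and 2 encode scaffold proteins. RNA was measured in 6 libraries of CD8+ T cells from the spleens of wild-type C57BL/6 mice aged 8 weeks, 2 libraries for each of 3 groups. Unstimulated cells were fresh. Control cells had been cultured for 72 h with antibodies to CD3 and CD28 and without magnets. SMF cells had the same antibodies and the same 72 h, but on a plate set over a permanent magnet that gave a static field of 0.3 T. The cells of all groups had been purified by negative selection, and no source states whether 2 libraries of a group came from separate animals, so p values measure only the spread between these libraries.

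Aminoacyl-tRNA synthetases attach each amino acid to its transfer RNA, the step that supplies the ribosome with charged tRNA. Animal cells carry a cytosolic set for nuclear messages and a second, nuclear-encoded set that is imported into mitochondria to translate the few proteins of the mitochondrial genome. Several cytosolic enzymes are held together with scaffold proteins in the multi-synthetase complex. *Eprs* encodes the glutamyl and the prolyl enzyme in 1 protein, and phenylalanyl-tRNA synthetase is built from the products of *Farsa* and *Farsb*. Resting T cells make little protein, and T cell receptor stimulation is known for raising protein synthesis and amino acid uptake before the cells divide.

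Values are FPKM, fragment numbers corrected for transcript length and library total and added up here over all transcripts of a gene. The files hold no read counts, so depth was taken as bases covered, which ranged from 64.4 to 259 Mb per library and was lowest in replicate 1 of the Unstimulated and Control cells. A value of 0 is therefore given only as a listing at 0. Dates in the folder names of the file headers put Unstimulated and Control replicate 1 together, Unstimulated and Control replicate 2 together, and both SMF libraries on a date of their own. None of the 3 dates held both SMF and Control libraries (0 of 3), so the date and the field cannot be told apart. All 5 CD8 T cell markers (*Cd3e*, *Cd3d*, *Cd3g*, *Cd8a* and *Cd8b1*) were above 0 in every library, although *Cd8a* and *Cd8b1* were called lower in Control than in Unstimulated cells. Of markers of cells that negative selection should remove, all 4 B cell markers, *Cd79a*, *Cd79b* and *Ms4a1* among them, were called lower in both stimulated groups, whereas *Csf1r* was not called in either and *Cd4* and *Alas2* were not called in Control cells. The 4 B cell markers summed to 142 and 103 FPKM in Unstimulated, 23.3 and 7.63 FPKM in Control and 4.5 and 2.43 FPKM in SMF libraries. Of 4 myeloid markers *Lyz2* and *Itgam* were called lower in both stimulated groups, and the sum was 116 and 141, 47 and 53.8, and 41.1 and 50.5 FPKM in the same order of groups. *Lyz2* was at 42.4 and 74 FPKM in Unstimulated libraries and listed at 0 in the other 4. The NK markers *Ncr1* and *Klrb1c* summed to 13.8 and 7.66 FPKM in Unstimulated libraries and to 0 in the others, with *Klrb1c* called lower, and fewer cells of a type cannot be told apart from less RNA per cell in such bulk samples. The activation genes *Gzmb*, *Il2ra*, *Ifng*, *Mki67* and *Myc* rose in Control against Unstimulated cells.

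The cytosolic set was the more abundant at every state. Its summed RNA lay further apart between Unstimulated cells and either stimulated group than that of the mitochondrial set. The sums are given as levels, with no test between the sets. The 19 cytosolic enzymes summed to 194 and 257 FPKM in Unstimulated, 463 and 619 FPKM in Control and 988 and 998 FPKM in SMF libraries. The 16 mitochondrial enzymes summed to 79.6 and 94.7, 82.9 and 75.5, and 168 and 115 FPKM in the same order. The cytosolic sums of the 3 groups thus stood apart, with Control 2.39 times and SMF 4.4 times the Unstimulated mean. The mitochondrial sums of Unstimulated and Control libraries overlapped, and both SMF sums lay above them. The SMF mean was 1.84 times the Control mean in the cytosolic and 1.78 times in the mitochondrial set. Cytosolic RNA outweighed mitochondrial RNA by 2.44 and 2.71 times in Unstimulated, 5.58 and 8.20 times in Control and 5.89 and 8.69 times in SMF libraries. All enzymes together took 0.0622% and 0.0761% of the FPKM of all genes in Unstimulated, 0.117% and 0.151% in Control and 0.279% and 0.265% in SMF libraries.

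**Figure D1:**
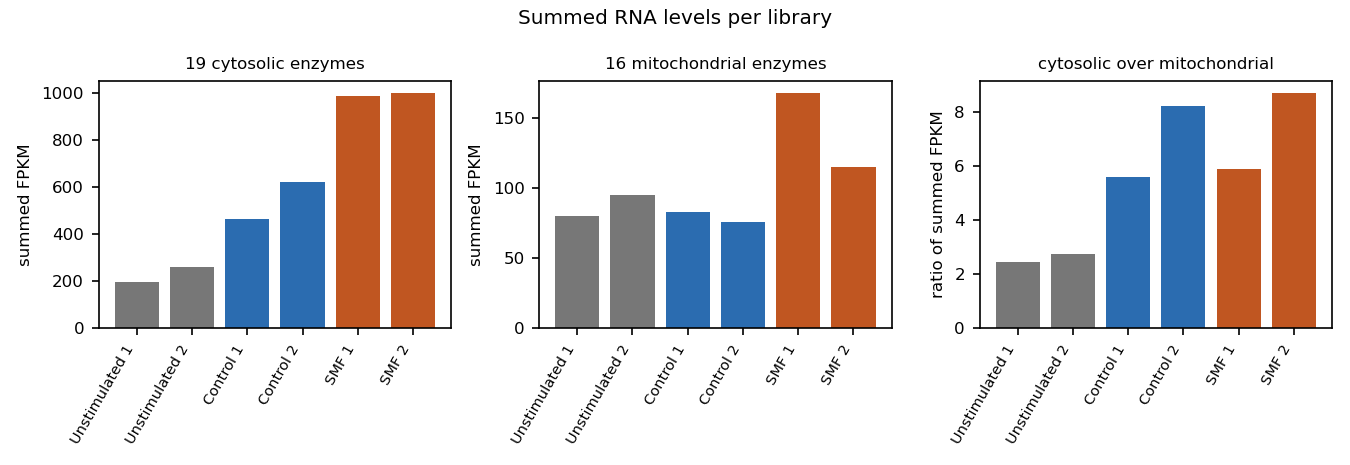
Summed FPKM of the 19 cytosolic enzymes, of the 16 mitochondrial enzymes, and the ratio of both sums, with 1 bar per library and no error bars. The cytosolic sums run from 194 to 998 FPKM with no overlap between groups, and the mitochondrial sums of Unstimulated and Control libraries lie between 75.5 and 94.7 FPKM.

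Within the cytosolic set, *Vars* (valine) had the highest gene total of the Unstimulated cells at 37.5 and 55.7 FPKM, ahead of *Nars* (asparagine) at 22.5 and 19.8 FPKM. The lysyl enzyme *Kars*, which serves both compartments, followed at 19.97 and 18.8 FPKM. The lead of *Vars* holds for gene totals, since 41.9% and 65% of it there was on transcripts that keep introns and code for no protein. Its transcript of 1263 codons was at 6.74 and 8.96 FPKM, whereas all *Nars* RNA was on 1 coding transcript. After stimulation the order was another: *Nars* led all members in SMF cells at 126 and 139.7 FPKM. In Control cells it was at 86.3 and 75.3 FPKM, which its neighbour *Vars* at 44.6 and 74.1 FPKM nearly reached in replicate 2. *Tarsl2*, the threonyl enzyme of lower abundance, had the lowest mean of the cytosolic set in each group, at 0.782 and 1.26 FPKM in Unstimulated, 2.86 and 2.89 FPKM in Control and 4.53 and 2.47 FPKM in SMF libraries. No cytosolic enzyme was listed at 0 in any library. Mitochondrial enzymes were mostly lower, and the number listed at 0, of 16, was 6 and 4 per library in Unstimulated, 4 and 0 in Control and 0 and 0 in SMF cells. Highest by mean in each group was *Iars2* (isoleucine), at 37.6 and 25.2 FPKM in Unstimulated, 36.6 and 23.8 FPKM in Control and 32.7 and 23.9 FPKM in SMF libraries, where the groups overlapped. *Pars2* (proline), *Aars2* (alanine) and *Nars2* (asparagine) had a mean under 1 FPKM over the 6 libraries and were not tested, which left 36 members of 14991 genes tested.

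**Figure D2:**
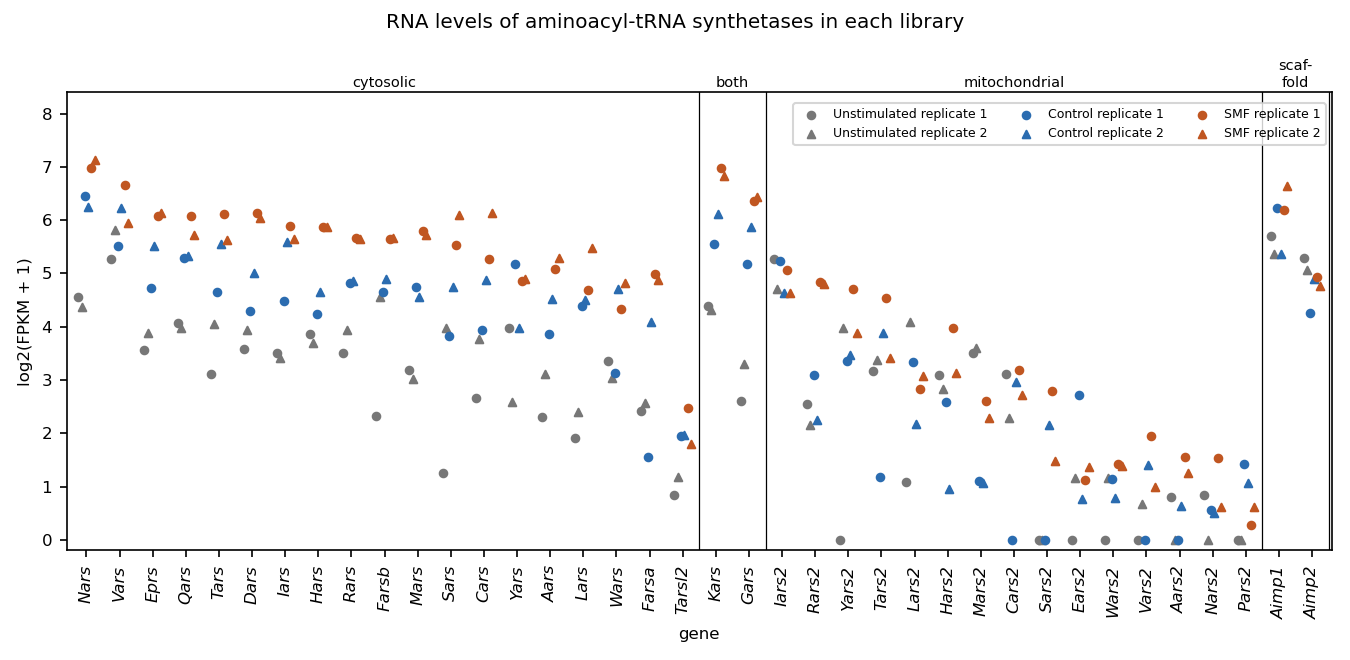
RNA level of 38 of the 39 genes as log2(FPKM + 1), with circles for replicate 1 and triangles for replicate 2, grouped by compartment and ordered by mean FPKM. Most cytosolic enzymes climb from Unstimulated (grey) over Control (blue) to SMF (orange), while *Iars2* keeps its groups intermixed and *Mars2* is highest in Unstimulated cells.

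The comparison of Control with Unstimulated cells asks what stimulation without a magnet did. Of the 19 cytosolic enzymes, 9 rose (*Aars*, *Eprs*, *Iars*, *Lars*, *Mars*, *Nars*, *Qars*, *Rars* and *Tars*), 0 fell and 10 did not pass the test, namely limma over all genes with a minimum 2-fold difference and an unadjusted p no greater than 0.05. Both genes that serve the cytosol and mitochondria rose as well. Over all genes tested, 12.3% were called higher and 12.6% lower. The log2 fold change was above 0 in 19 of 19 cytosolic enzymes, against 48.5% of all genes, except that *Farsa*, *Vars* and *Wars* turned below 0 without Control replicate 2. Its median was 1.29 over the cytosolic enzymes and -0.05 over all genes tested.

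*Gars*, the glycyl enzyme, went from 5.08 and 8.88 FPKM in Unstimulated to 35 and 57.8 FPKM in Control libraries, a log2 fold change of 2.57 ± 0.40 (SE) with a limma adjusted p of 0.0198. *Nars* rose from 22.5 and 19.8 to 86.3 and 75.3 FPKM, a log2 fold change of 1.88 ± 0.26 (SE) with a limma adjusted p of 0.0156. *Lars*, the leucyl enzyme that also senses leucine for mTORC1, rose from 2.75 and 4.28 to 20.1 and 21.8 FPKM, a log2 fold change of 2.30 ± 0.43 (SE) with a limma adjusted p of 0.0303. In each of these genes the lowest Control library lay far above the highest Unstimulated library. *Mars*, which charges the initiator and elongator methionine tRNAs, rose by a log2 fold change of 1.56 ± 0.31 (SE) and *Kars* by 1.48 ± 0.30 (SE), both with a limma adjusted p under 0.05 (0.0365 and 0.0381). In Control replicate 2, 99.1% of *Mars* was on transcripts that keep introns, and its rise did not hold over protein-coding transcripts alone. Gene for gene, 3 of the 19 cytosolic enzymes and both *Gars* and *Kars* kept an adjusted p of at most 0.05, against 8.48% of all genes.

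The other called enzymes rose by smaller or less even steps. *Qars* (glutamine) was at 15.8 and 14.7 FPKM in Unstimulated and 38.1 and 39.2 FPKM in Control libraries, and *Rars* (arginine) at 10.4 and 14.4 and 27.2 and 27.9 FPKM. Nearly all *Qars* RNA in these libraries was assigned to transcripts that keep introns and code for no protein. *Aars* (alanine) was at 3.95 and 7.62 FPKM in Unstimulated and 13.5 and 22.1 FPKM in Control libraries, *Tars* (threonine) at 7.69 and 15.5 and 24.2 and 46.2 FPKM and *Eprs* at 10.8 and 13.7 and 25.5 and 45 FPKM. *Aars*, *Eprs*, *Iars*, *Qars*, *Rars* and *Tars* kept their groups apart, with log2 fold changes from 1.11 to 1.57 and limma adjusted p values from 0.0518 to 0.11. The cytosolic enzymes that did not pass were *Cars*, *Dars*, *Farsa*, *Farsb*, *Hars*, *Sars*, *Tarsl2*, *Vars*, *Wars* and *Yars*, with log2 fold changes from 0.33 to 1.67. Some had a large fold and a large spread: *Sars* was at 1.39 and 14.7 FPKM in Unstimulated and 13.1 and 25.8 FPKM in Control libraries, *Farsb* (phenylalanine, β subunit) at 4.02 and 22.4 and 24 and 28.8 FPKM and *Cars* (cysteine) at 5.35 and 12.7 and 14.4 and 28.5 FPKM. In 4 of these (*Farsa*, *Sars*, *Vars* and *Wars*) the groups overlapped, and in the other 6, as in all 9 called enzymes, both Control libraries were above both Unstimulated libraries, giving 15 of 19 against 24.8% of all genes. None lay below in both (0 of 19), against 26.6% of all genes. *Wars*, the tryptophanyl enzyme known as an interferon-γ target, was at 9.23 and 7.26 FPKM in Unstimulated and 7.82 and 25.2 FPKM in Control libraries, so the Control libraries differed more between themselves than the groups did. *Aars* shares 1326 exon bases on the same strand with *Exosc6*, which was at 13.5 FPKM in Control replicate 1 and between 0.216 and 2.85 FPKM in the other libraries, so its value in that library depends on how reads were divided between the 2 genes. *Iars* has a near-identical copy in *Gm4849*, at 96% over 602 bases, which stayed at 0.449 FPKM or less in every library.

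Since both Unstimulated and Control libraries of a replicate number share a folder date, the difference was also taken within each date. Of the 19 cytosolic enzymes 17 were above the Unstimulated library in both, against 30.9% of all genes, and 9 (*Aars*, *Cars*, *Eprs*, *Lars*, *Mars*, *Nars*, *Qars*, *Tars* and *Yars*) by at least 2-fold in both, against 11.4% of all genes. The median log2 difference of the cytosolic set was 1.22 in replicate 1 and 1.39 in replicate 2. Without Unstimulated replicate 1, the library in which *Sars*, *Farsb* and *Cars* were lowest, 5 cytosolic enzymes were called higher (*Lars*, *Nars*, *Yars*, *Qars* and *Mars*). With the replicate number as a block over all 6 libraries, *Cars*, *Sars* and *Yars* were called higher as well, making 12 of 19. The number follows the folder date in Unstimulated and Control libraries, but it also divides the SMF libraries, which share a date. The B cell, *Lyz2*, *Itgam* and *Klrb1c* markers were called lower in the same comparison, and their part in it was not tested.

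Enzymes of the multi-synthetase complex and free cytosolic enzymes were set side by side. Of the 8 complex enzymes, 7 rose (*Eprs*, *Iars*, *Kars*, *Lars*, *Mars*, *Qars* and *Rars*), and *Dars* (aspartate), at 11 and 14.4 FPKM in Unstimulated and 18.5 and 31.2 FPKM in Control libraries, did not pass. Their median log2 fold change was 1.44, against 1.24 in the 12 cytosolic enzymes outside the complex, of which 3 rose, and 12.3% of all genes did. With the replicate number as a block, 6 of those 12 were called, so the distance between the counts depends on the model. In SMF against Unstimulated cells 8 of 8 complex enzymes rose, with a median of 2.36, and 9 of the 12 others, with a median of 2.25, against 22.4% of all genes. The complex set holds *Kars*, which serves both compartments. *Gars*, which does so too and lies outside the complex, was left out of both sets. It was called higher in both comparisons, with log2 fold changes of 2.57 in Control and 3.44 in SMF against Unstimulated cells. The 2 scaffold genes of the complex did not pass in any comparison. *Aimp1* was at 51 and 40.2 FPKM in Unstimulated, 73.6 and 40.4 FPKM in Control and 71.8 and 98.5 FPKM in SMF libraries, and *Aimp2* was at 38.1 and 32.7, 18.2 and 28.7 and 29.5 and 26 FPKM.

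Of the 13 mitochondrial enzymes tested in the same comparison 0 rose, 1 fell and 12 did not pass. At an unadjusted p of at most 0.05 with any fold *Mars2* was again the single one to pass (1 of 13), against 26.9% of all genes. Their median log2 fold change was 0.33, and -0.20 without Unstimulated replicate 1, in which *Sars2*, *Vars2*, *Wars2*, *Ears2* and *Yars2* were listed at 0. Without Control replicate 2, *Tars2* and *Cars2* were also called lower and *Ears2* higher. *Mars2*, the mitochondrial methionyl enzyme, fell from 10.4 and 11.1 FPKM in Unstimulated to 1.14 and 1.1 FPKM in Control libraries, a log2 fold change of -2.47 ± 0.46 (SE) with a limma adjusted p of 0.0304. The drop was alike within the dates, at -2.42 and -2.52, and opposite to the change in the gene total of its cytosolic counterpart *Mars*. Over protein-coding transcripts alone *Mars* also lay lower in Control cells. *Mars2* (chr1:55237177-55248470, GRCm38, plus strand) is annotated as a single exon of 11294 bases with a coding sequence of 586 codons. *Hars2* (histidine) was lower in both Control libraries, at 5.03 and 0.946 against 7.5 and 6.14 FPKM, and did not pass (log2 fold change -1.19 ± 0.67 (SE), limma adjusted p = 0.321). Several others were unsteady between libraries of 1 group, such as *Yars2* (tyrosine) at 0 and 14.8 FPKM and *Lars2* (leucine) at 1.12 and 16 FPKM in the Unstimulated cells. *Tars2* (threonine) was at 8.05 and 9.41 FPKM in Unstimulated and 1.27 and 13.8 FPKM in Control libraries and *Cars2* (cysteine) at 7.6 and 3.88 and 0 and 6.83 FPKM, so that in both 1 Control library was low and the other was not. *Ears2*, which also serves mitochondrial glutamine through mischarged tRNA, was at 0 and 1.23 FPKM in Unstimulated and 5.58 and 0.695 FPKM in Control libraries. *Sars2* (serine), *Vars2* (valine) and *Wars2* (tryptophan) were between 0 and 3.45 FPKM in these 4 libraries, close to the filter. The standard errors of the log2 fold changes had a median of 0.79 in the mitochondrial and 0.44 in the cytosolic enzymes, so equal changes were less detectable in the mitochondrial set.

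**Figure D3:**
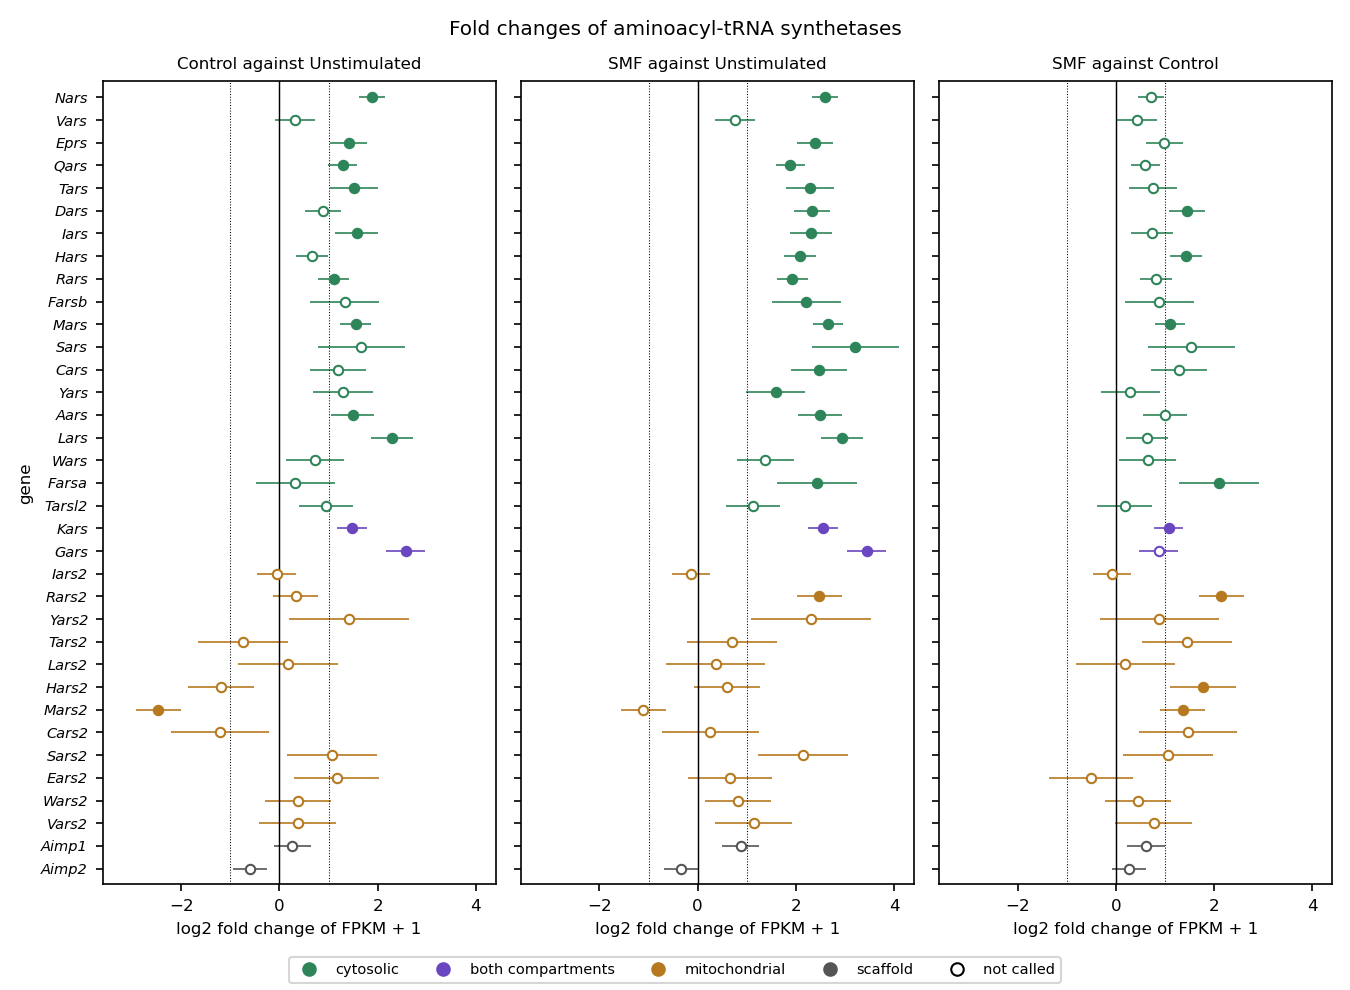
Log2 fold change with its standard error (bars) for 35 of the 36 genes tested in the 3 comparisons, coloured by compartment, with filled circles for called genes and dotted lines at a 2-fold change. The cytosolic enzymes lie to the right of 0 in all 3 panels, and the mitochondrial enzymes are spread around it in the left panel, with *Mars2* at -2.47. In a fit that is not drawn, with libraries shifted to a common median, *Yars* and *Tarsl2* turned below 0 in SMF against Control cells.

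SMF cells were next compared with Unstimulated cells, the comparison in which stimulation, field and folder date all differ. Cytosolic enzymes rose almost throughout: 16 of 19 were called higher, 0 lower, and *Tarsl2*, *Vars* and *Wars* did not pass. *Gars* and *Kars* rose, and so did 2 of 13 mitochondrial enzymes. Over all genes tested 22.4% were called higher and 14.8% lower. The log2 fold change was above 0 in 19 of 19 cytosolic and 11 of 13 mitochondrial enzymes, against 56.8% of all genes. Its median was 2.31 in the cytosolic and 0.70 in the mitochondrial enzymes, against 0.27 over all genes. The mitochondrial median was 1.41 without Unstimulated replicate 2, 2.0 with a pseudocount of 0.1 in place of 1 and 0.38 with a pseudocount of 5. The share of FPKM on protein-coding genes moved with this comparison, from 49.3% and 49.6% in Unstimulated to 69.2% and 68.7% in SMF libraries, as did depth, from 67.4 and 132 to 259 and 227 Mb covered, and their part in it was not tested.

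*Gars* reached 81.3 and 85.2 FPKM, a log2 fold change of 3.44 ± 0.40 (SE) with a limma adjusted p of 0.0055. *Sars* (serine) had the largest cytosolic fold change at 3.21 ± 0.89 (SE), but its Unstimulated libraries lay at 1.39 and 14.7 FPKM, and its limma adjusted p was 0.0468. *Nars* was measured with the smallest error of the cytosolic set, at 2.59 ± 0.26 (SE) with a limma adjusted p of 0.00436. Each cytosolic enzyme was higher in both SMF libraries than in both Unstimulated libraries, 19 of 19 against 39.7% of all genes, the 3 that did not pass included, and 26% of all genes lay the other way. Those 3 had log2 fold changes of 0.76 (*Vars*), 1.13 (*Tarsl2*) and 1.38 (*Wars*). With adjustment over all genes 13 of the 19 remained at 0.05 or less, against 23.6% of all genes. Without a minimum fold, 16 of 19 had an unadjusted p no greater than 0.05, against 39.1% of all genes.

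Among the mitochondrial enzymes that rose, *Rars2* (arginine) was at 4.85 and 3.43 FPKM in Unstimulated, 7.58 and 3.78 FPKM in Control and 27.7 and 27.1 FPKM in SMF libraries, so both SMF libraries lay far above the other 4. Its log2 fold change in SMF against Unstimulated cells was 2.48 ± 0.46 (SE), with a limma adjusted p of 0.0162. *Mars2* stood at 5.09 and 3.86 FPKM in SMF libraries, below both Unstimulated libraries. It did not pass (log2 fold change -1.11 ± 0.46 (SE), limma adjusted p = 0.13) but was called lower without either Control library. Among those that did not pass, *Yars2* and *Sars2* had the largest log2 fold changes, 2.31 ± 1.21 (SE) and 2.14 ± 0.91 (SE), with *Yars2* at 25 and 13.8 FPKM and *Sars2* at 5.93 and 1.8 FPKM in SMF libraries. *Tars2* was at 22.2 and 9.71 FPKM, both above its Unstimulated libraries, and *Cars2* at 8.08 and 5.6 FPKM, with the groups overlapping. Without Unstimulated replicate 2, *Wars2* and *Yars2* were called higher as well.

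The comparison of SMF with Control cells is the one the study was built for, and here the field coincides with the folder date. Of the 19 cytosolic enzymes 4 rose (*Dars*, *Farsa*, *Hars* and *Mars*), 0 fell and 15 did not pass, and of the 13 mitochondrial enzymes 3 rose (*Hars2*, *Mars2* and *Rars2*). *Kars* rose and *Gars* did not pass. Over all genes tested 12.5% were called higher and 5.72% lower, and the median log2 fold change of all genes was 0.32. Against that shift the medians were 0.82 in the cytosolic and 1.06 in the mitochondrial enzymes, with a log2 fold change above 0 in 19 of 19 and 11 of 13, against 60.2% of all genes. The order of the 2 medians was not stable: the mitochondrial one was 0.48 without SMF replicate 1 and 0.63 without Control replicate 1, below the cytosolic ones of 0.90 and 0.75. No member kept a limma adjusted p of at most 0.05 (0 of 36, against 4 of 14991 genes, 0.0267%), and the smallest adjusted p of a member was 0.14. At an unadjusted p of at most 0.05 with any fold, 11 of 36 members passed, against 21.1% of all genes.

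*Hars*, the cytosolic histidyl enzyme, was at 17.9 and 24 FPKM in Control and 57.2 and 57.6 FPKM in SMF libraries, a log2 fold change of 1.42 ± 0.32 (SE) with a limma adjusted p of 0.141. *Dars* rose from 18.5 and 31.2 to 69.1 and 65.2 FPKM, at 1.44 ± 0.37 (SE) with a limma adjusted p of 0.152. *Rars2* rose from 7.58 and 3.78 to 27.7 and 27.1 FPKM, at 2.15 ± 0.46 (SE) with a limma adjusted p of 0.14. These 3 genes were called in every alternative fit at the same thresholds. *Mars* rose from 26 and 22.7 to 54.7 and 51.7 FPKM and *Kars* from 45.9 and 68.1 to 125 and 113 FPKM, with log2 fold changes of 1.10 and 1.07. *Farsa* rested on Control replicate 1: it was at 1.92 and 16.1 FPKM in Control and 30.7 and 28.2 FPKM in SMF libraries, and without that library its log2 fold change was 0.83, short of 2-fold. The protein-coding transcript of *Farsa* was at 0 and 8.49 FPKM in Control and 20.3 and 0 FPKM in SMF libraries. The rest was assigned to transcripts that keep introns.

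*Hars2*, read from the strand opposite to *Hars* with 195 shared exon bases, was at 5.03 and 0.946 FPKM in Control and 14.8 and 7.76 FPKM in SMF libraries. It rested on Control replicate 2, and without that library the log2 fold change fell from 1.78 to 0.96 and was not called. *Mars2* rose from 1.14 and 1.1 to 5.09 and 3.86 FPKM, a log2 fold change of 1.36 ± 0.46 (SE) with a limma adjusted p of 0.192, which left it below its Unstimulated level of 10.4 and 11.1 FPKM.

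Although few cytosolic enzymes passed, the groups were ordered in most of them. Both SMF libraries were above both Control libraries in 15 of 19 cytosolic and 6 of 13 mitochondrial enzymes, against 37.4% of all genes, and none was lower in both (0 members, against 17.4% of all genes). The log2 fold changes of the 15 cytosolic enzymes that did not pass ran from 0.18 to 1.54. With the libraries shifted to a common median, *Hars* and *Dars* were the cytosolic enzymes still called, *Rars2* the mitochondrial one, and *Yars* and *Tarsl2* turned to lower in SMF cells. Without Control replicate 2, 7 cytosolic and 5 mitochondrial enzymes were called higher, and *Yars* lay lower in SMF cells. Without either SMF library *Rars2* was the 1 mitochondrial enzyme still called. Other measures moved with this comparison: protein-coding genes took 49.1% and 50.5% of all FPKM in Control and 69.2% and 68.7% in SMF libraries, and the 5 CD8 T cell markers summed to 271 and 441 FPKM in Control and 748 and 629 FPKM in SMF libraries. Their part in the difference was not tested.

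For 14 amino acids a cytosolic and a mitochondrial enzyme could be paired, which sets the 2 compartments against each other within a library. The cytosolic member was the higher in 10 of 14 pairs in each Unstimulated library, in 13 and 14 pairs in the Control libraries and in 14 pairs in both SMF libraries. The pairs were not the same in the Unstimulated libraries: *Cars*, *Iars*, *Mars* and *Tars* were the lower partner in replicate 1 and *Iars*, *Lars*, *Mars* and *Yars* in replicate 2. The median difference of log2(FPKM + 1) between partners was 1.11 and 1.65 in Unstimulated, 2.73 and 2.80 in Control and 2.37 and 3.20 in SMF libraries. Both Control libraries exceeded both Unstimulated libraries in 8 of 14 pairs, and 0 pairs went the other way. Against Unstimulated, 8 pairs were higher and 2 were lower in both SMF libraries (*Rars* with *Rars2* and *Vars* with *Vars2*), and against Control 0 were higher and 2 were lower. These counts carry no test, and no share over other pairs of genes was taken to set beside them. Some mitochondrial partners, *Sars2*, *Vars2* and *Yars2* among them, were listed at 0 in Unstimulated libraries. In gene totals the methionine pair turned over: *Mars* was below *Mars2* in both Unstimulated libraries (8.16 and 7.06 against 10.4 and 11.1 FPKM) and above it in the other 4. The protein-coding transcript of *Mars* alone was below *Mars2* in Control replicate 2, at 0.206 against 1.1 FPKM. *Iars* and *Iars2* turned over less evenly, with *Iars* at 10.4 and 9.65 FPKM in Unstimulated, 21.3 and 47.2 FPKM in Control and 58.1 and 49.4 FPKM in SMF libraries beside the overlapping groups of *Iars2*.

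**Figure D4:**
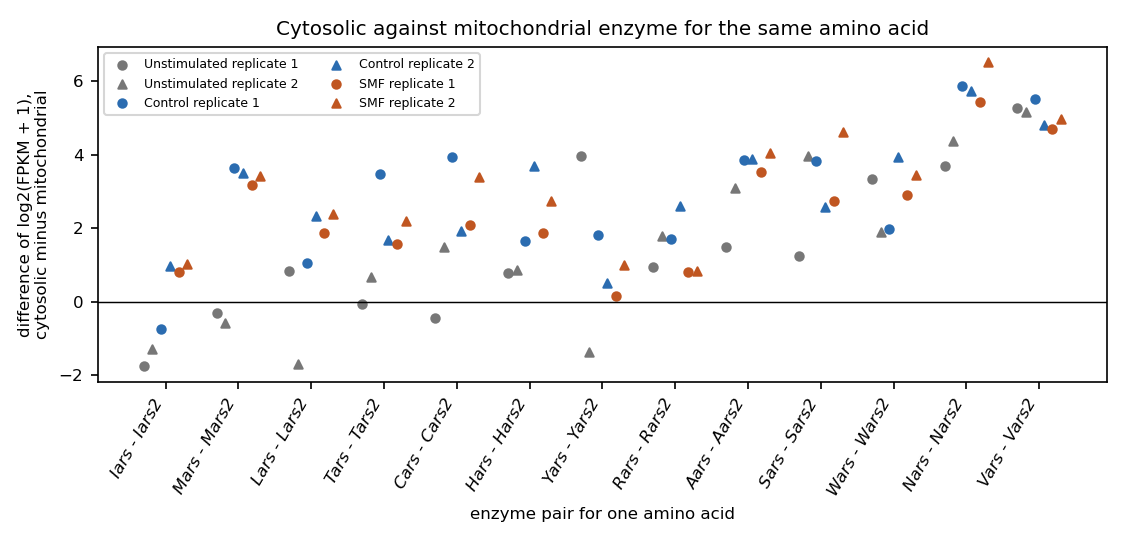
Difference of log2(FPKM + 1) between the cytosolic and the mitochondrial enzyme for the same amino acid, per library, for 13 of the 14 pairs, ordered by their mean in Unstimulated cells. Points above 0 mark libraries in which the cytosolic enzyme is higher, as in all 13 pairs drawn for both SMF libraries. In each Unstimulated library these are 9 of the 13, but not the same pairs.

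The deposited values also divide each gene among its annotated transcripts, some of which keep introns and code for no protein. Of the cytosolic FPKM, transcripts typed as retained intron took 37.5% and 48.5% in Unstimulated, 31.8% and 35.9% in Control and 22.6% and 20.8% in SMF libraries. The share was thus lower from group to group with no overlap, whereas that of the mitochondrial enzymes, between 7.64% and 32.3%, had no such order. In the 2 scaffold genes it went the other way, at 24.5% and 3.1%, 36.6% and 12.5%, and 45.5% and 46% in the same order of groups, with Unstimulated and Control libraries overlapping. *Eprs* (chr1:185363044-185428360, GRCm38, plus strand) showed it most plainly. Its protein-coding transcript of 32 exons was at 2.02 and 3.87 FPKM in Unstimulated, 10.2 and 18.1 FPKM in Control and 63.3 and 62.8 FPKM in SMF libraries. A retained-intron transcript of 20 exons was at 8.5 and 8.46, 8.75 and 8.72 and 2.59 and 6.15 FPKM, so it made up most of *Eprs* in Unstimulated cells and little of it in SMF cells. Summed over its retained-intron transcripts the share of *Eprs* was 81.3% and 71.7% in Unstimulated, 59.97% and 59.8% in Control and 5.19% and 9.53% in SMF libraries. No test was run on single transcripts, whose levels are estimates from shared reads. The retained-intron share was not taken over all genes, so its order is not shown to be particular to these enzymes. Protein-coding genes took 49.1% to 50.5% of all FPKM in Unstimulated and Control and 69.2% and 68.7% in SMF libraries, which have a folder date of their own. Their part in the order was not tested.

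*Kars* (chr8:111993443-112011323, GRCm38, minus strand) was assigned to other transcripts as its level rose. The gene is known to make its cytosolic and mitochondrial enzymes by alternative splicing near the 5′ end. A 16-exon transcript with a coding sequence of 624 codons was at 19.4 and 18.7 FPKM in Unstimulated, 0 and 0.213 FPKM in Control and 0 and 0 FPKM in SMF libraries. A 15-exon transcript with the same 624 codons was at 0 and 0, 24.1 and 0 and 56.4 and 63.1 FPKM, and the 14-exon transcript with 595 codons was at 0 and 0, 20.7 and 67.7 and 64.7 and 48 FPKM. Unstimulated libraries were thus assigned almost wholly to the 16-exon transcript and stimulated libraries to the shorter transcripts. The 16-exon transcript alone holds an exon of 58 bases at chr8:112008482-112008539, and both longer transcripts hold an exon of 180 bases at chr8:112008207-112008386 that the 14-exon transcript lacks. In Control replicate 2 nearly all of *Kars* was on the 14-exon transcript, in contrast to the other stimulated libraries.

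**Figure D5:**
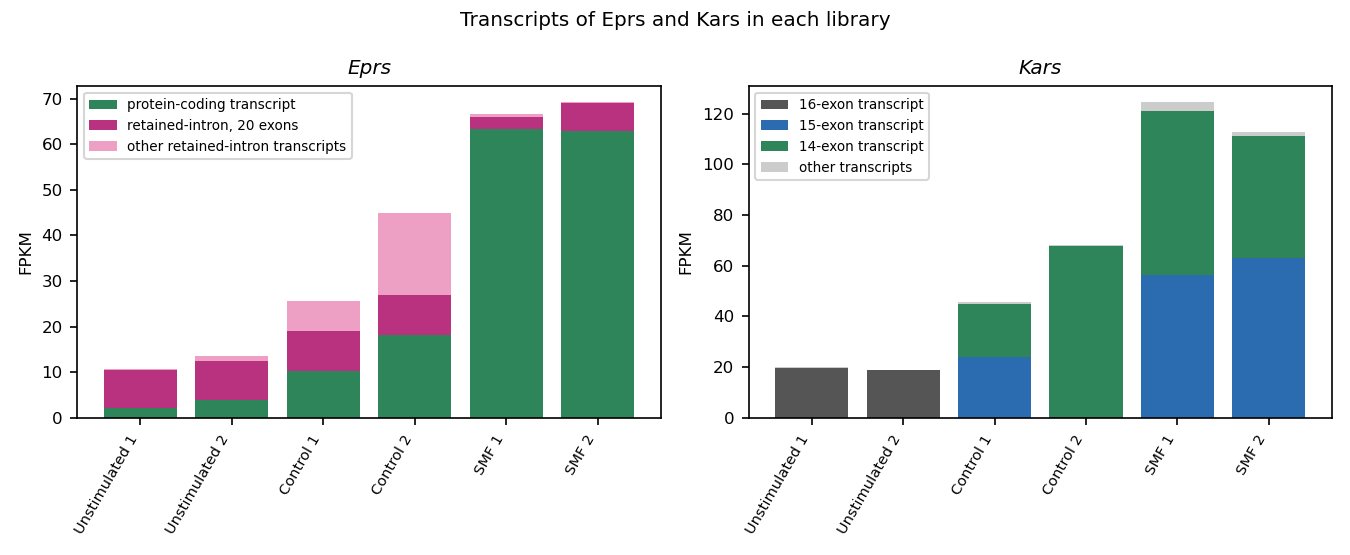
FPKM of the transcripts of *Eprs* and *Kars* that reached 1 FPKM in any library, stacked by type for *Eprs* and by exon number for *Kars*, with 1 bar per library. The protein-coding share of *Eprs* grows to nearly the whole bar in SMF cells, and the 16-exon transcript of *Kars* appears in the Unstimulated bars.

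Other members were divided less evenly. *Mars* in Control replicate 2 was almost wholly on retained-intron transcripts, mostly 1 of 20 exons (0 and 18.5 FPKM in the Control libraries), and its coding transcript of 902 codons was at 21.2 and 0.206 FPKM there against 8.16 and 7.06 FPKM in Unstimulated libraries. Counted over protein-coding transcripts alone, an alternative chosen after the data were seen, *Mars* therefore turned from a rise to a log2 fold change of -0.73 in Control against Unstimulated cells. Retained-intron transcripts took 100% and 100% of *Qars* in Unstimulated, 96.9% and 97.5% in Control and 95.6% and 58.9% in SMF libraries. The coding transcript of *Qars*, of 775 codons, was at 0 and 0, 1.17 and 0.992 and 2.84 and 8.81 FPKM in the same order of groups. *Sars* had a second coding transcript of 1866 bases in SMF cells, at 22.4 and 42.8 FPKM against 0 and 0.146 FPKM in Control and 0 and 0 FPKM in Unstimulated libraries. Beneath the overlapping totals of *Iars2*, which shares 2034 exon bases on the opposite strand with *Rab3gap2*, its coding transcript was at 32.1 and 25.2 FPKM in Unstimulated and 9.23 and 17.6 FPKM in Control libraries, and *Iars2* was called lower there when protein-coding transcripts alone were summed.

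Promoter windows were read for the members because synthetase genes are known targets of ATF4, which acts through amino acid response elements when amino acids run short, and of MYC, which binds E-boxes. RefSeq windows on GRCm38.p6, from 250 bases before to 50 after each start, were found for 29 of the 39 members. TGATGCAA, the amino acid response element searched on both strands, occurred in 4 of 12 cytosolic genes with a window (*Aars*, *Iars*, *Tars* and *Yars*) and 0 of 13 mitochondrial ones. It occurred in 1.03% of all genes with a window. The looser TGATGNAA, which includes it, added *Gars* and occurred in 4.51% of all such genes. CACGTG, the E-box, occurred in *Aars*, *Farsb*, *Iars* and *Tars*, and in *Ears2* alone of the mitochondrial genes, against 8.09% of all such genes. The NRF1 motif (GCGC, any base, then TGCGC) occurred in *Farsb*, *Tars*, *Kars*, *Iars2* and *Mars2*, against 5.19% of all such genes. The stretches of the 4 genes with a strict response element are shown 5′ to 3′ on the gene's strand, with the response element and any E-box in capitals.

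Aars: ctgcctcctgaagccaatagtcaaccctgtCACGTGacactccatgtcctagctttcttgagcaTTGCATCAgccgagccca
Iars: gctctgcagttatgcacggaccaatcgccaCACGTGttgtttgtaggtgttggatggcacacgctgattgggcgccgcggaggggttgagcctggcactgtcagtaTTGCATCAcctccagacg
Tars: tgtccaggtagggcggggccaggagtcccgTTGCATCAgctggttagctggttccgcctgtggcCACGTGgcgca
Yars: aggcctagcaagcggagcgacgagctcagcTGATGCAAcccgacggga

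These lie at chr8:111033666-111033747 (plus strand, *Aars*), chr13:49682031-49682154 (plus strand, *Iars*), chr15:11399629-11399703 (minus strand, *Tars*) and chr4:129189876-129189923 (plus strand, *Yars*). Counted from the RefSeq start, with the start itself as position 1, the response element begins at -112 in *Aars*, 8 in *Iars*, -15 in *Tars* and 4 in *Yars*, and reads in reverse in the first 3. *Aars*, *Iars* and *Tars* rose in Control against Unstimulated cells and *Yars*, at 14.7 and 5.04 FPKM in Unstimulated and 35.1 and 14.8 FPKM in Control libraries, did not pass. The other cytosolic enzymes that rose were *Lars*, *Nars* and *Rars*, without a window to search, and *Eprs*, *Mars* and *Qars*, with none of the 4 motifs in their windows. A match of letters is a description of the window and not of a bound site.

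Genes around aminoacylation were counted from lists. Of 11 further aminoacylation genes, 5 rose in Control against Unstimulated cells (*Aarsd1*, *Dtd1*, *Dtd2*, *Eef1e1* and *Fars2*) and 0 fell, against 12.3% and 12.6% of all genes. *Eef1e1*, the third scaffold protein of the multi-synthetase complex, was at 0 and 7.94 FPKM in Unstimulated, 39.9 and 23.3 FPKM in Control and 66.1 and 42.4 FPKM in SMF libraries. *Fars2*, the mitochondrial phenylalanyl enzyme, whose symbol lies outside the naming rule, was at 20.5 and 22.9, 2244 and 1873 and 1560.4 and 1153 FPKM. That rise in both stimulated groups sat on a transcript of 4 exons and 849 bases at chr13:36721926-36726280 typed as a processed transcript and lying past the 3′ end of the 7-exon one, at 10.7 and 16.3 FPKM in Unstimulated, 2234 and 1855 FPKM in Control and 1549 and 1136 FPKM in SMF libraries. The 7-exon *Fars2* transcript was between 6.53 and 12.3 FPKM in all 6 libraries, with the groups overlapping. *Qrsl1* and *Gatb*, subunits of the amidotransferase that makes mitochondrial glutaminyl-tRNA, were the 2 of 11 called higher in SMF than in Control cells, against 12.5% of all genes, at 6.81 and 2.68 against 0 and 0.0934 FPKM and 5.03 and 3.58 against 0.78 and 1.54 FPKM. The list's median log2 fold change there was -0.17, below the 0.32 of all genes. Both SMF libraries were above both Control libraries in 5 of 11, against 37.4% of all genes, and below them in 4 of 11, against 17.4%. *Gatc*, the third subunit, was called lower in SMF than in Unstimulated cells, at 51.2 and 54.9 against 146 and 119 FPKM.

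Factors that use charged tRNA were counted next. Of 9 cytosolic elongation and termination genes, 3 rose in Control (*Eif5a*, *Etf1* and *Gspt1*) and 8 in SMF against Unstimulated cells, and 6 in SMF against Control cells (*Abce1*, *Eef1d*, *Eef1g*, *Eef2*, *Eif5a* and *Etf1*). The shares of all genes called higher in these comparisons were 12.3%, 22.4% and 12.5%. *Eif5a*, whose product carries hypusine and eases peptide bond formation, was at 89.2 and 114 FPKM in Unstimulated, 286 and 367 FPKM in Control and 716 and 746 FPKM in SMF libraries, with no overlap between groups. Of 9 mitochondrial translation factors tested, *Gfm1*, *Tsfm* and *Tufm* rose in Control and in SMF against Unstimulated cells and *Gfm2* fell in Control cells, and 1 (*Tufm*) rose in SMF against Control cells. *Tufm*, which delivers charged tRNA to the mitochondrial ribosome, was at 4.85 and 8.2 FPKM in Unstimulated, 28.2 and 23.7 FPKM in Control and 59.7 and 55.9 FPKM in SMF libraries. Among 13 genes of tRNA processing and export, 2 rose in Control (*Nsun2* and *Tsen34*, with *Tsen54* lower), 6 in SMF against Unstimulated cells, and 3 in SMF against Control cells, *Rtcb* and *Xpot* among them. In Control cells these counts lie near the shares of all genes, 12.3% higher and 12.6% lower, and are no result about the list. *Xpot*, the exporter of tRNA from the nucleus, was at 1.88 and 4.85 FPKM in Unstimulated, 6.03 and 16.9 FPKM in Control and 29.1 and 38.3 FPKM in SMF libraries.

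Of 19 amino acid response genes tested, 12 were called higher and 0 lower against Unstimulated cells, against 12.3% and 12.6% of all genes, and the median log2 fold change was 1.72, against -0.05. In SMF against Unstimulated cells 16 were called higher, against 22.4% of all genes, with a median of 1.93, against 0.27. In SMF against Control cells 1 was called higher, a smaller share than the 12.5% of all genes, with a median of 0.56, against 0.32. *Atf4*, the transcription factor of that response, was at 19.6 and 31.2 FPKM in Unstimulated, 72 and 48 FPKM in Control and 89 and 107 FPKM in SMF libraries. *Slc7a5*, the large neutral amino acid transporter, was at 9.54 and 3.41, 33.7 and 44.9 and 47.8 and 55.3 FPKM, and its partner *Slc3a2*, the gene called in SMF against Control cells, at 16.5 and 23.1, 10.7 and 29.9 and 58.9 and 60.4 FPKM. *Asns*, which makes asparagine, was listed at 0 in both Unstimulated libraries and at 9.95 and 18 FPKM in Control and 12.7 and 42.6 FPKM in SMF libraries. *Ddit3*, which faces *Mars* with 68 shared exon bases on opposite strands, was at 59.4 and 41.3 FPKM in Unstimulated, 97.2 and 92.7 FPKM in Control and 69 and 89.3 FPKM in SMF libraries and was not called in any comparison.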

How the data were processed

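RNA of 6 libraries was made into stranded total-RNA libraries (SMARTer Pico kit) and sequenced on a HiSeq instrument. Per the submitters' processing notes the tools were Trimmomatic 0.36, HISAT2 and StringTie. Per the file headers, each library was quantified by StringTie 1.3.5 on GRCm38 with GENCODE M19 (annotated transcripts, stranded). The deposited values per transcript were FPKM and TPM, both normalized by the authors, and unnormalized coverage. A deposited FPKM table with 3 value columns matching no sample was not used. Here FPKM was summed per gene, and log2(FPKM + 1) of the 14991 genes averaging 1 FPKM or more was fitted with limma 3.58.1 (R 4.3.3, variance trend, 3 groups together, 3 residual degrees of freedom). Calls used the study's thresholds, a 2-fold difference or more with unadjusted p no greater than 0.05, with Benjamini-Hochberg adjusted p beside them, and the procedure was tested on simulated data. Fold changes on this scale are understated for low genes.

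Any member could be named, and from the related lists the called genes; *Ddit3*, *Exosc6*, *Gm4849* and *Rab3gap2* were added for their overlaps or shared sequence after their values were seen. The members and lists were chosen with earlier results of these data known. Transcript types came from GENCODE M21 (137654 transcripts matched, 113 not), overlaps from bedtools 2.31.1, and near-identical copies (at least 95% over 200 bases) from minimap2. Promoter windows came from RefSeq (GRCm38.p6) by symbol or synonym; *Cars*, *Hars*, *Hars2*, *Lars*, *Nars*, *Pars2*, *Rars*, *Vars* and *Wars* were among the 10 with none in the table used. Results for some genes are not reported here by name.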

Additional observations from a re-analysis of the deposited data

How the results depend on the processing

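Alternatives were other pseudocounts, filters and scalings, gene TPM, other variance models, a replicate block, other thresholds, each library left out, and protein-coding transcripts alone, the last chosen after the data were seen. Of members called, 5 of 12 in Control against Unstimulated, 14 of 20 in SMF against Unstimulated and 3 of 8 in SMF against Control cells were called in every alternative fit at the same thresholds. The causes of the changes below were not tested. The number of cytosolic enzymes called higher in SMF against Unstimulated cells stayed within 1.5 times of 16 throughout, from 11 to 17. Leaving out a library gave 5 to 12 cytosolic enzymes higher in Control against Unstimulated, 11 to 15 in SMF against Unstimulated and 3 to 7 in SMF against Control cells. For mitochondrial enzymes the ranges were 0 to 1, 2 to 4 and 1 to 5, and for members called lower 1 to 3, 0 to 1 and 0 to 0. The cytosolic minus the mitochondrial median log2 fold change ranged from 0.76 to 1.31, from 1.1 to 1.61 and from -0.47 to 0.42. It turned to 0.42 without SMF replicate 1, 0.13 without Control replicate 1 and 0.25 without Control replicate 2, from -0.24 in SMF against Control cells, and to 0.12 with a pseudocount of 5 and 0.24 with protein-coding transcripts alone. It was -0.93 there with a pseudocount of 0.1 and -0.55 with a filter at 5 FPKM, so its sign was not settled. In Control against Unstimulated cells this difference was 0.96, and 1.71 with a filter at 5 FPKM and 1.66 with protein-coding transcripts alone. In SMF against Unstimulated cells it was 1.61, and 0.41 with a pseudocount of 0.1 and 1.89 with protein-coding transcripts alone. An adjusted p of at most 0.05 left 3 cytosolic enzymes in Control against Unstimulated and 0 cytosolic and 0 mitochondrial enzymes in SMF against Control cells. In SMF against Control cells gene TPM and a fold of at least 1.5 each gave 7 cytosolic enzymes, and shifted medians gave 2 cytosolic and 1 mitochondrial. No filter, and gene TPM, each gave 1 mitochondrial enzyme (*Pars2*) higher in Control against Unstimulated cells, and protein-coding transcripts gave 2 members lower, with *Mars* reversed to -0.73. A filter at 5 FPKM left 1 mitochondrial enzyme higher in SMF against Unstimulated cells. Shifted medians, scaling to 1 FPKM sum over genes with several exons, no variance trend, the 2 groups alone and protein-coding transcripts each called 1 member (*Mars2*) lower there. With the replicate number as a block, 12 cytosolic enzymes were called higher in Control against Unstimulated, 17 in SMF against Unstimulated and 6 in SMF against Control cells. That block also divides the SMF libraries, which share a folder date. Deviations of same-numbered libraries correlated at 0.096, 0.030 and 0.021 across genes, so the numbers were not taken as pairs beyond the folder dates. The lower depth of replicate 1 of Unstimulated and Control cells means that mitochondrial enzymes listed at 0 there cannot be told from low ones.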
